A study of Homo sapiens with 2 samples.

Results

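The mitotic spindle, kinetochore and condensin genes are 46 named genes whose products assemble the spindle, attach it to chromosomes, condense and separate the chromosomes, or carry the transcription of that programme. All 46 symbols were found among the 26475 symbols of the deposited tables, by exact match, and all 46 were among the 13316 symbols with a mean of at least 1 in counts per 1000000 reads (CPM) over both libraries. The genes were compared between C4-2B ENZR cells that carried a short hairpin RNA (shRNA) against the coding region of NRP2 (shNRP2) and C4-2B ENZR cells that carried a non-targeting shRNA (shControl). C4-2B ENZR is an established human prostate cancer line resistant to enzalutamide, a drug used against prostate cancer. Both groups were infected with lentivirus, selected with antibiotic and kept in 20 µM enzalutamide, and NRP2, which encodes the co-receptor neuropilin-2, was targeted with 1 hairpin. The series is about NRP2 in neuroendocrine prostate cancer. There was 1 library of total RNA per group, so the spread between cultures is unknown, no p-value is given for the conditions, and each difference describes these 2 libraries.

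During mitosis, microtubules of the spindle attach to kinetochores, protein plates built on the centromere of each chromosome. The spindle checkpoint holds back the anaphase promoting complex until every kinetochore is attached; CDC20 then activates that complex, separase cuts cohesin, and the sister chromatids part. Transcription of most of these genes is periodic, peaks in G2 and mitosis, and is driven by B-MYB with the MuvB complex and by FOXM1, so that bulk RNA levels are often read as a sign of proliferation. In bulk RNA, fewer cells in mitosis and less RNA per mitotic cell cannot be told apart.

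The shNRP2 library held 22992304 reads on genes and the shControl library 21052178. NRP2 itself was at 0.330 CPM (7 reads) in shNRP2 and 0.974 CPM (20 reads) in shControl, 2.95-fold lower, with a 95% counting interval from 1.198 to 8.26. All 9 prostate epithelial markers compared were detected. By 1.2-fold, 5 of them were higher (55.6%) and 1 lower (11.1%) in shNRP2, where 19.6% of all 13316 compared symbols were higher and 16.2% lower. KLK3 was at 41.0 CPM in shNRP2 and 5.60 CPM in shControl, KLK2 at 92.5 CPM in shNRP2 and 16.4 CPM in shControl, and FOXA1 at 302 CPM in shNRP2 and 453 CPM in shControl. The summed level of 5 leukocyte markers was 10.9 CPM in shNRP2 and 7.35 CPM in shControl. Most of it was CD68, at 9.95 CPM in shNRP2 and 6.67 CPM in shControl. The 5 fibroblast markers summed to 36.6 CPM in shNRP2 and 46.4 CPM in shControl, most of it COL1A1 with DCN at 0 in both. The 4 endothelial markers summed to 3.87 CPM in shNRP2 and 4.09 CPM in shControl. The 5 neuroendocrine markers summed to 2.97 CPM in shNRP2 and 3.94 CPM in shControl. The 9 epithelial markers summed to 3056 CPM in shNRP2 and 2577 CPM in shControl, more than each other list, although COL1A1 alone, at 32.5 CPM in shNRP2 and 41.5 CPM in shControl, was above KLK2 and KLK3 in shControl. The part of these markers in the results was not tested.

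Across the 46 mitotic genes the differences between the libraries were small and went both ways. The checkpoint target CDC20, the kinase PLK1, the kinetochore motor CENPE, the passenger protein CDCA8, the checkpoint protein BUB1B and the kinetochore subunit NUF2 were lower in shNRP2 by 1.2-fold or more, and the kinetochore subunits SPC24 and SPC25 were higher. Changes are given as log2((shNRP2 CPM + 1)/(shControl CPM + 1)), a scale that understates changes of low genes, and a gene was called lower or higher at 1.2-fold on it. This low threshold was chosen because earlier results of these data had shown none of the 46 genes past 1.5-fold. That made 6 genes lower (13.0%), where 16.2% of all compared genes were lower, and 2 higher (4.35%), where 19.6% of all compared genes were higher. At equal library totals the counts were 10 lower and 1 higher, where 22.2% and 14.0% of all compared genes were. In both scalings the share of higher genes was under that of the transcriptome. The other 38 genes (82.6%) lay between, against 64.2% of all compared genes.

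None of the 46 reached 1.5-fold in either direction, which was known when the threshold was set. Of all compared genes, 9.35% did. Log2 changes ran from -0.39 for CENPE to 0.35 for SPC24, with a median of -0.03, against a median of 0.03 for all compared genes; 24 lay below 0 and 22 above. The standard deviation of the changes was 0.18 over the mitotic genes and 0.37 over all compared genes. The mitotic genes had means of 12.4 to 374 CPM, and low genes vary more by counting. Among the 9729 compared genes with a mean of 10 to 400 CPM, a range chosen after the values were seen, 13.4% were lower and 16.4% higher, and the standard deviation was 0.31. In that range 5.61% reached 1.5-fold in either direction. The side of 0 on which the whole group lies depended on the scaling: at equal library totals, 35 of 46 genes lay below 0, with a median of -0.11 beside -0.05 for all compared genes, and with a trend in GC content and transcript length removed 22 lay below 0 and the median was 0.01.

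**Figure D1:**
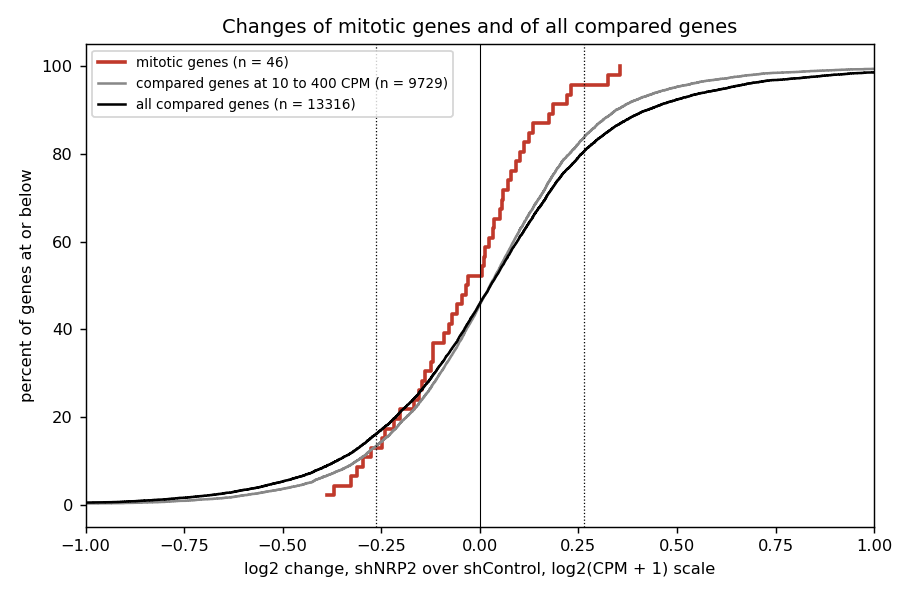
Cumulative percent of genes (vertical axis) at or below each log2 change of shNRP2 over shControl on the log2(CPM + 1) scale (horizontal axis, cropped at 1 on either side), for the 46 mitotic genes, the 9729 compared genes at 10 to 400 CPM and all 13316 compared genes. Dotted lines mark 1.2-fold. The mitotic genes span -0.39 to 0.35, and their curve is steeper than both others.

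Counting error alone was smaller than many of these differences. The exact conditional binomial 95% interval of the CPM ratio, computed from recovered whole reads on the deposited scaling, lay below 1 for 16 mitotic genes (34.8%), where it did so for 24% of all compared genes, and above 1 for 9 (19.6%), where it did so for 32.7%. By this call the share of lower genes was above that of all compared genes, while at 1.2-fold it was not. At 10 to 400 CPM the interval lay below 1 for 26.3% of compared genes. It included 1 for the other 21. An exact conditional binomial test on those reads with Benjamini-Hochberg adjustment called 6954 of the 13316 compared genes (52.2%) and 25 of the 46 mitotic genes (54.3%). At 10 to 400 CPM it called 56.7% of compared genes. The test compares 2 libraries, not the conditions. Reads are not independent molecules, so intervals and this test cover counting error only.

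**Figure D2:**
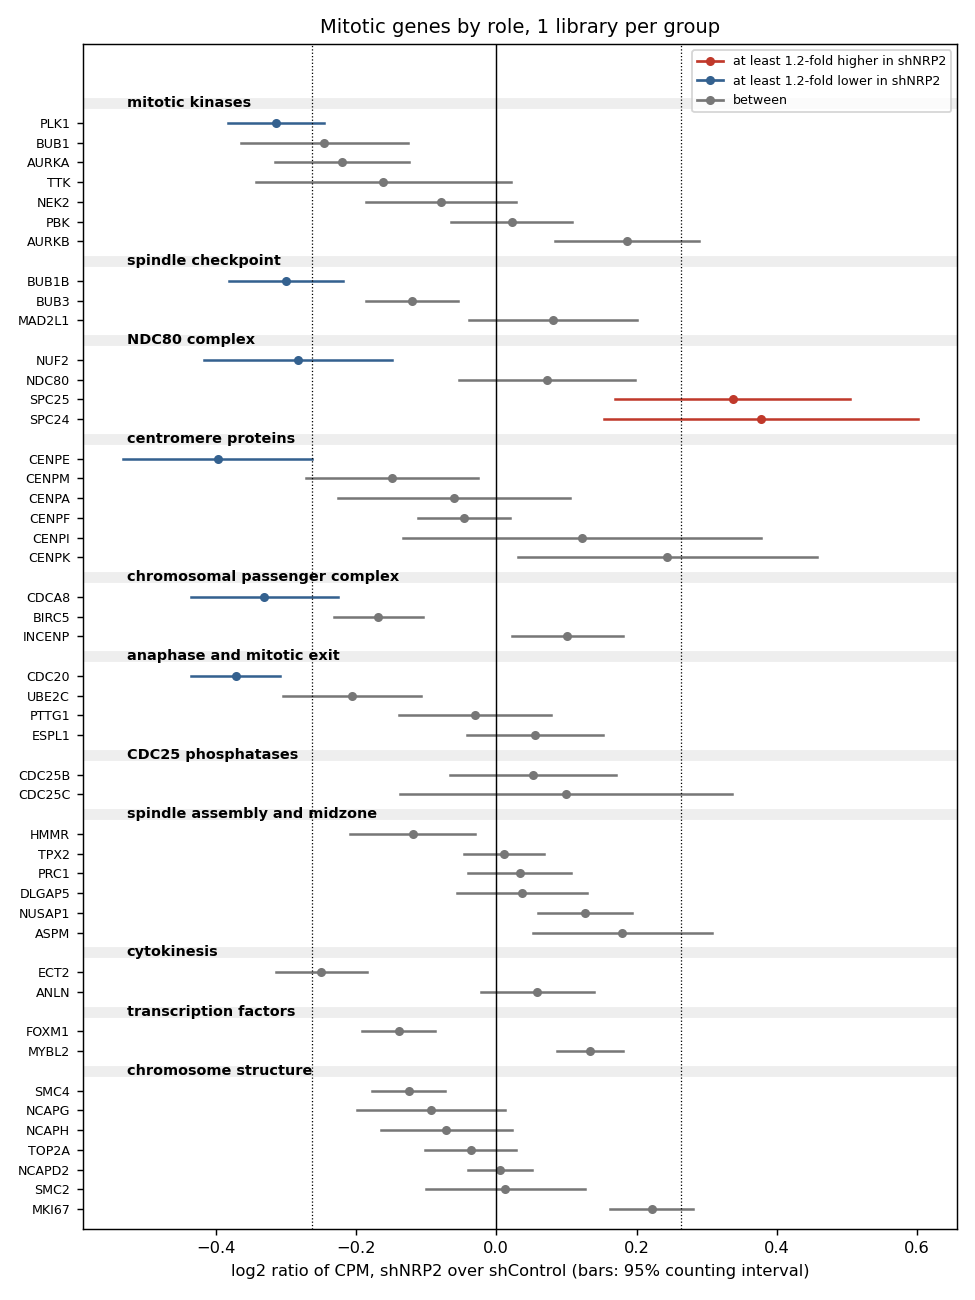
Log2 ratio of CPM, shNRP2 over shControl (horizontal axis), for each of the 46 genes grouped by role, with 95% counting intervals as bars; dotted lines mark a ratio of 1.2 in each direction. The 6 genes in blue were called lower and the 2 in red higher on the log2(CPM + 1) scale, and lower and higher genes occur within the same role.

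The promoters show what most of these genes share apart from function. The cell cycle genes homology region (CHR) is a short element that MuvB complexes bind, and the CCAAT box is bound by NF-Y; both are known elements of promoters active in G2 and mitosis. Of the 46 genes, 37 had a promoter in the RefSeq table (build GRCh38.p14), from 250 bases before to 50 bases after each annotated start; PBK, BUB3, AURKA, BIRC5, TTK, TPX2, UBE2C, CENPM and FOXM1 had none. The letters TTTGAA (read as TTCAAA on the other strand) and TTCGAA (the same on both) were searched; 1 of them stood in at least 1 listed promoter of 28 of the 37 (75.7%), of 14.98% of 9940 compared genes with a promoter and of 19.5% of all 27305 genes with one. With only the first listed start of each gene, the shares were 70.3% and, over the compared genes, 10.6%. The CCAAT box, searched on both strands and so also as the letters ATTGG, stood in 27 of the 37 (73.0%) and in 43.4% of the compared genes, and both elements in 21 (56.8%) and in 8.23%. These letter matches describe the windows; binding was not measured.

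To show where the letters stand in genes with different changes, 150 bases up to the annotated start are shown for the 5 called lower with the lowest log2 changes, for SPC25 and SPC24, called higher, and for MKI67, the gene of its role with the largest change. Capitals mark the CHR and CCAAT letters on either strand; in CDCA8 and MKI67 a TTTGAA and an ATTGG share 1 base.
CDC20 (chr1:43358831-43358980, plus strand): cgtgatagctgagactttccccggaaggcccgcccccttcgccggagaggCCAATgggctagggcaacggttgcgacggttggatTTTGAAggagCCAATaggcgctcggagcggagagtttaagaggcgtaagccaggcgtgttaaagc
CDCA8 (chr1:37692366-37692515, plus strand): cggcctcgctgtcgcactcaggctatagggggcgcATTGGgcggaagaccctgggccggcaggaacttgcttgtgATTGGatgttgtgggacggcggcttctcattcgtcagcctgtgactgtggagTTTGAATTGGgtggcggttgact
PLK1 (chr16:23678739-23678888, plus strand): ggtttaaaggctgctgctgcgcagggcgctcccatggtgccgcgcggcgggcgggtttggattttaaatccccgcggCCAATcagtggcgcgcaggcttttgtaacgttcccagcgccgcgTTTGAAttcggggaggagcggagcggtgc
BUB1B (chr15:40160919-40161068, plus strand): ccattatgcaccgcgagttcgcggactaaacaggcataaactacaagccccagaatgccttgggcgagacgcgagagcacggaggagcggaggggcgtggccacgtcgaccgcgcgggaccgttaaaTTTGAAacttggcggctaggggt
CENPE (chr4:103198344-103198493, minus strand): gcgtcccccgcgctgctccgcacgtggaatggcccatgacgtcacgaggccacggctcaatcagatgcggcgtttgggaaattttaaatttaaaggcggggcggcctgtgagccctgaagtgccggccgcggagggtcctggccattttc
SPC25 (chr2:168890431-168890580, minus strand): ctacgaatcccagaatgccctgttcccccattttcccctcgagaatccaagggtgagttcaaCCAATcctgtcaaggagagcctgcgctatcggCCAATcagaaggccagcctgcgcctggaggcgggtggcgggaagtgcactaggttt
SPC24 (chr19:11155783-11155932, minus strand): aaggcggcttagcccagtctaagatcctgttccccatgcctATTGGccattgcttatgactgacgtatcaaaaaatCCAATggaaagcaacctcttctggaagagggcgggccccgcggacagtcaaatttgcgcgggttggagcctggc
MKI67 (chr10:128126424-128126573, minus strand): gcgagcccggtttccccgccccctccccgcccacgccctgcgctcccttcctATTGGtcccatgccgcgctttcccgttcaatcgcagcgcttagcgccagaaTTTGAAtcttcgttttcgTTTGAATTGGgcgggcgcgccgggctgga
In CDC20, CDCA8, PLK1 and BUB1B, all lower in shNRP2, a TTTGAA began 65, 23, 29 and 23 bases before the start. MKI67, at a log2 change of 0.22, held the same letters at 47 and 29 bases before the start. In SPC25, higher in shNRP2, one TTTGAA began at -3 and runs over the start, and another at -247, so the stretch shown holds only its CCAAT letters. CENPE and SPC24, the lowest and the highest of the 46, had no CHR letters anywhere in their windows. The 28 genes with CHR letters had a median log2 change of 0.01 (from -0.37 to 0.33; 5 lower, 1 higher), and the 9 without had a median of 0.11 (from -0.39 to 0.35; 1 lower, 1 higher). Both sets thus covered nearly the same range. Over all compared genes, 16.2% were lower and 19.6% higher, and no difference between the 2 sets was tested.

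**Figure D3:**
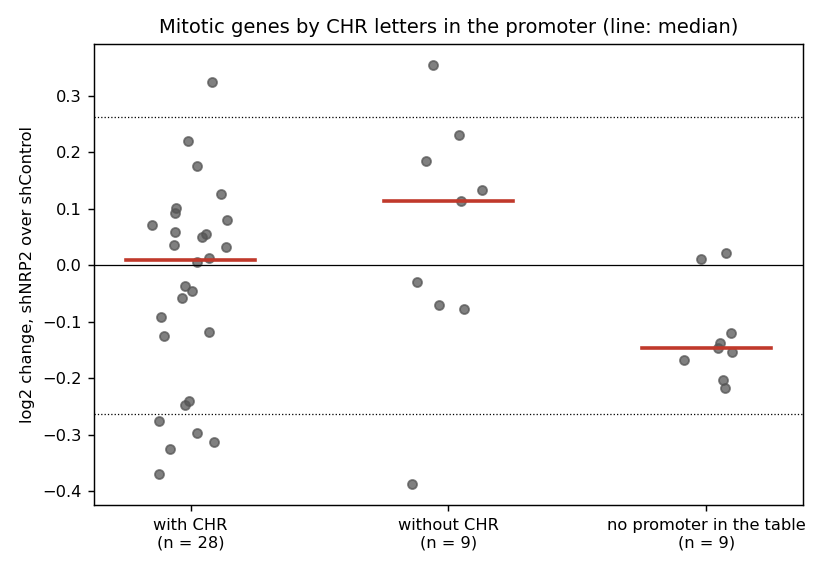
Log2 change of shNRP2 over shControl on the log2(CPM + 1) scale (vertical axis) for 28 mitotic genes with CHR letters in a listed promoter, 9 without, and 9 with no promoter in the table. Points are genes, red lines medians (0.01, 0.11 and -0.15) and dotted lines 1.2-fold; the first 2 sets overlap over most of their range.

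The 2 transcription factors of the programme lay on opposite sides. FOXM1, a forkhead factor that activates G2 and mitotic genes, was at 273 CPM in shNRP2 and 301 CPM in shControl, a ratio of 0.908 (0.876 to 0.941). MYBL2, which encodes B-MYB, was at 368 CPM in shNRP2 and 336 CPM in shControl, a ratio of 1.10 (1.06 to 1.13). Neither passed 1.2-fold, though both counting intervals excluded 1, and MYBL2 had the larger ratio to FOXM1 in shNRP2, as given below.

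Among 7 mitotic kinases, 1 was lower (14.3%) and 0 higher, where 16.2% of all compared genes were lower and 19.6% higher. PLK1, Polo-like kinase 1, which acts in centrosome maturation, spindle assembly and mitotic exit, was at 148 CPM in shNRP2 and 185 CPM in shControl, 1.24-fold lower (1.19 to 1.30). BUB1, a checkpoint kinase at the kinetochore, was at 51.3 CPM in shNRP2 and 60.8 CPM in shControl. AURKA, Aurora kinase A of the spindle poles, was at 79.1 CPM in shNRP2 and 92.1 CPM in shControl. These 3 had counting intervals below a ratio of 1, although BUB1 and AURKA did not pass 1.2-fold. TTK, the checkpoint kinase also called MPS1, was at 22.7 CPM in shNRP2 and 25.4 CPM in shControl. NEK2, a centrosome kinase, was at 66.3 CPM in shNRP2 and 70.0 CPM in shControl, and PBK, a mitotic MAPKK-like kinase, at 105 CPM in shNRP2 and 104 CPM in shControl. For these 3 the counting interval included 1. AURKB, Aurora kinase B, the enzyme of the chromosomal passenger complex, was at 79.2 CPM in shNRP2 and 69.6 CPM in shControl (ratio 1.14, 1.06 to 1.22). The Aurora kinases therefore differed in sign, and AURKB was the only kinase of the 7 whose interval lay above 1.

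Of the spindle checkpoint genes and their target CDC20, only MAD2L1 lay above 0 on the deposited scaling. The checkpoint kinases BUB1 and TTK, given above, lay below 0, at log2 changes of -0.24 and -0.15. BUB1B, which encodes BUBR1, a subunit of the mitotic checkpoint complex, was at 106 CPM in shNRP2 and 131 CPM in shControl, 1.23-fold lower (1.16 to 1.30). BUB3, its binding partner, was at 171 CPM in shNRP2 and 186 CPM in shControl. MAD2L1, which encodes MAD2, the subunit that binds CDC20, was at 56.1 CPM in shNRP2 and 53.1 CPM in shControl. Its ratio of 1.06 (0.973 to 1.15) had an interval that included 1, and its log2 change of 0.08 turned to -0.0005 at equal library totals. BUB1B alone of the 3 passed 1.2-fold, and with a trend in GC content and transcript length removed its log2 change of -0.26 was just short of it. CDC20, the activator of the anaphase promoting complex, was at 172 CPM in shNRP2 and 222 CPM in shControl, 1.29-fold lower (1.24 to 1.35). UBE2C, the ubiquitin-conjugating enzyme of that complex, was at 75.5 CPM in shNRP2 and 87.1 CPM in shControl. PTTG1, which encodes securin, the separase inhibitor, was at 66.2 CPM in shNRP2 and 67.6 CPM in shControl. The interval of UBE2C lay below 1 and that of PTTG1 included it. ESPL1, separase itself, was at 84.8 CPM in shNRP2 and 81.5 CPM in shControl. Of these 4 genes of anaphase, CDC20 was thus lower, and securin and separase had counting intervals that included 1.

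The 4 subunits of the NDC80 complex, the main microtubule coupler of the kinetochore, split. NUF2, which pairs with NDC80 at the microtubule-binding end, was at 39.7 CPM in shNRP2 and 48.2 CPM in shControl, 1.22-fold lower (1.11 to 1.34). NDC80 was at 51.0 CPM in shNRP2 and 48.5 CPM in shControl, with an interval that included 1. Its log2 change of 0.07 turned to -0.01 at equal library totals. SPC24 and SPC25 form the other end of the complex, at the inner kinetochore. SPC24 was at 18.4 CPM in shNRP2 and 14.2 CPM in shControl, a ratio of 1.30 (1.11 to 1.52) on 390 and 291 reads. SPC25 was at 31.8 CPM in shNRP2 and 25.2 CPM in shControl, a ratio of 1.26 (1.12 to 1.42) on 674 and 517 reads. They were the only 2 of the 46 called higher; with equal library totals SPC25, at a log2 change of 0.25, no longer passed 1.2-fold, and with 5 CPM added to each value in place of 1, NUF2, at -0.25, did not.

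Of 6 centromere proteins, 1 was lower (16.7%) and 0 higher, beside 16.2% lower and 19.6% higher over all compared genes. CENPE, a kinesin motor that moves chromosomes to the spindle equator, was at 37.6 CPM in shNRP2 and 49.6 CPM in shControl, 1.32-fold lower (1.199 to 1.45), the largest decrease of the 46. CENPM, of the constitutive centromere network, was at 49.8 CPM in shNRP2 and 55.2 CPM in shControl. CENPA, the histone H3 variant that marks the centromere, was at 28.2 CPM in shNRP2 and 29.4 CPM in shControl. Only CENPE and CENPM had intervals below 1. CENPF, a large protein of the outer kinetochore, was at 177 CPM in shNRP2 and 182 CPM in shControl. CENPI and CENPK, both of the constitutive network, were at 12.9 and 19.2 CPM in shNRP2 and at 11.8 and 16.2 CPM in shControl. CENPK had a ratio of 1.18 (1.02 to 1.37), close to but not past 1.2-fold, and CENPI lay within counting error.

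The chromosomal passenger complex corrects wrong attachments of microtubules and consists of AURKB, INCENP, BIRC5 and CDCA8. CDCA8, which encodes borealin, was at 64.0 CPM in shNRP2 and 80.5 CPM in shControl, 1.26-fold lower (1.17 to 1.35). BIRC5, survivin, was at 182 CPM in shNRP2 and 204 CPM in shControl. INCENP, the scaffold that activates AURKB, was at 128 CPM in shNRP2 and 119 CPM in shControl. On the deposited scaling CDCA8 and BIRC5 had intervals below 1, while INCENP and AURKB had intervals above 1. At equal library totals the log2 change was 0.02 for INCENP and 0.10 for AURKB.

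**Figure D4:**
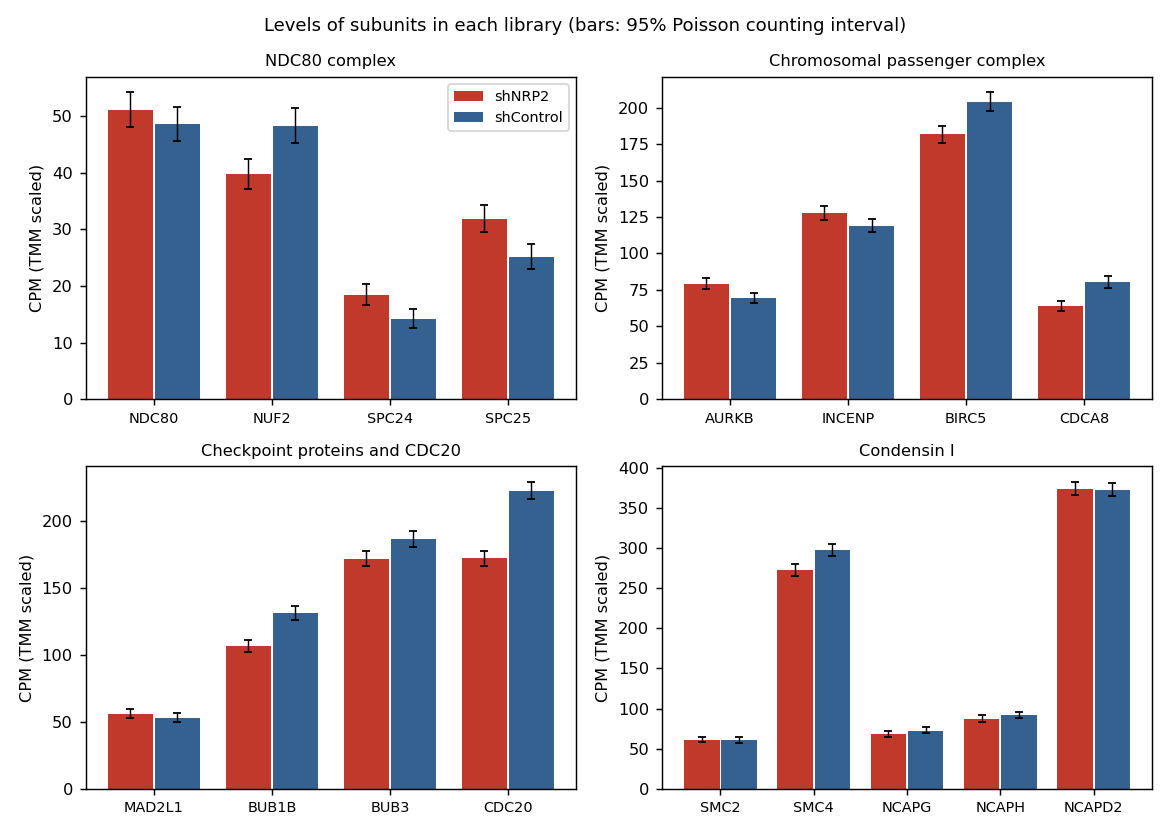
CPM as deposited (vertical axes, from 0) of the subunits of the NDC80 complex, the chromosomal passenger complex, the checkpoint proteins with CDC20, and condensin I, with shNRP2 left of shControl for each gene and 95% Poisson counting intervals as bars. NUF2, CDCA8, BUB1B and CDC20 are lower in shNRP2, and SPC24 and SPC25 higher; SMC2 and NCAPD2 nearly coincide.

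Ratios between genes of 1 library do not depend on how the libraries are scaled. A set of 10 pairs was formed after the values were seen, so these ratios are descriptions with counting intervals and no test. SPC24 had 0.464 reads per NUF2 read in shNRP2 and 0.294 in shControl, a ratio of ratios of 1.58 (1.32 to 1.89). SPC25 had 0.801 reads per NUF2 read in shNRP2 and 0.522 in shControl, a ratio of ratios of 1.54 (1.32 to 1.78). Both values exceed the ratio of any single subunit, since the paired genes lay on opposite sides of 1. AURKB had 1.24 reads per CDCA8 read in shNRP2 and 0.864 in shControl, a ratio of ratios of 1.43 (1.29 to 1.58). AURKB per AURKA was 1.00 in shNRP2 and 0.755 in shControl. MYBL2 per FOXM1 was 1.35 in shNRP2 and 1.12 in shControl, a ratio of ratios of 1.21 (1.15 to 1.27). The 10 ratios of ratios ran from 1.196 for MKI67 over TOP2A to 1.58, and each was formed with the gene of the higher log2 change on top.

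**Figure D5:**
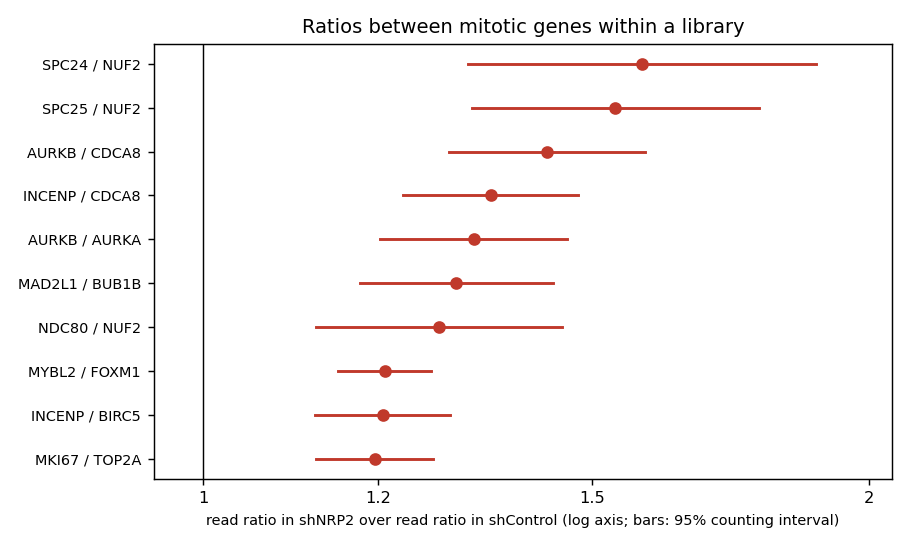
Read ratio of each of 10 gene pairs in shNRP2 divided by the same ratio in shControl (horizontal log axis), with 95% counting intervals as bars; the line marks 1. All 10 intervals lie above 1, for pairs chosen after the values were seen, with SPC24 over NUF2 the highest at 1.58.

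Genes of spindle assembly and the midzone lay near 0, and none of 6 passed 1.2-fold, where 64.2% of all compared genes also did not. ASPM, a spindle pole protein, was at 51.5 CPM in shNRP2 and 45.5 CPM in shControl (ratio 1.13, 1.04 to 1.24). NUSAP1, which bundles spindle microtubules, was at 182 CPM in shNRP2 and 167 CPM in shControl. HMMR, a spindle pole protein and hyaluronan receptor, was at 94.4 CPM in shNRP2 and 102 CPM in shControl. ASPM and NUSAP1 had intervals above 1 and HMMR below. TPX2, an activator of Aurora kinase A, was at 235 CPM in shNRP2 and 233 CPM in shControl. PRC1, which crosslinks microtubules of the central spindle, was at 146 CPM in shNRP2 and 143 CPM in shControl, and DLGAP5, of spindle fibres near the kinetochore, at 92.7 CPM in shNRP2 and 90.4 CPM in shControl. The intervals of these last 3 included 1. CDC25B and CDC25C, phosphatases that activate CDK1 at mitotic entry, were at 57.0 and 14.8 CPM in shNRP2 and at 55.0 and 13.8 CPM in shControl. Both intervals included 1, that of CDC25C with a ratio of 1.07 (0.909 to 1.26).

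Of the cytokinesis genes, ECT2, the exchange factor that activates RhoA at the cleavage site, was at 170 CPM in shNRP2 and 202 CPM in shControl, a ratio of 0.841 (0.804 to 0.880). ECT2, with a log2 change of -0.25, was the gene just short of 1.2-fold on the low side, and NUF2 at -0.28 was just past it. ECT2 passed it at equal library totals and under quantile normalization (-0.33 in each) and with the median log2 ratio set to 0 (-0.27). ANLN, anillin, a scaffold of the contractile ring, was at 123 CPM in shNRP2 and 118 CPM in shControl. On the high side, CENPK at 0.23 was just short and SPC25 at 0.33 just past.

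None of 7 genes of chromosome structure passed 1.2-fold, where 64.2% of all compared genes also did not. MKI67 did, at a log2 change of 0.27, with a trend in GC content and transcript length removed. Condensin I is built from the ATPases SMC2 and SMC4 with NCAPD2, NCAPG and NCAPH, and compacts mitotic chromosomes. NCAPD2 was at 374 CPM in shNRP2 and 373 CPM in shControl. SMC4 was at 273 CPM in shNRP2 and 297 CPM in shControl, a ratio of 0.917 (0.884 to 0.951). On the deposited scaling it was the only condensin subunit of the 5 whose interval excluded 1. SMC2 was at 61.4 CPM in shNRP2 and 60.8 CPM in shControl. NCAPG was at 68.2 CPM in shNRP2 and 72.7 CPM in shControl, and NCAPH at 87.5 CPM in shNRP2 and 92.0 CPM in shControl. At equal library totals the log2 changes were -0.21 for SMC4, -0.17 for NCAPG, -0.15 for NCAPH, -0.08 for NCAPD2 and -0.07 for SMC2. No condensin I transcript passed 1.2-fold on either scaling, but which intervals exclude 1 depends on the scaling. TOP2A, topoisomerase II alpha, which untangles sister chromatids, was at 183 CPM in shNRP2 and 188 CPM in shControl. MKI67, the Ki-67 protein that coats mitotic chromosomes and is a common marker of proliferation, was at 240 CPM in shNRP2 and 206 CPM in shControl, a ratio of 1.17 (1.12 to 1.21). MKI67 and TOP2A, both read as proliferation markers, therefore lay on different sides of 0, TOP2A within counting error on the deposited scaling. At equal library totals their log2 changes were 0.14 for MKI67 and -0.12 for TOP2A.

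Other genes of mitosis, a list of 97 that holds none of the 46, gave similar counts: 13 were lower (13.4%) and 5 higher (5.15%), with a median of 0.00. Among them the cohesin ATPase SMC1A was at 188 CPM in shNRP2 and 295 CPM in shControl (log2 -0.65), and the DREAM factor E2F4 at 29.3 CPM in shNRP2 and 54.5 CPM in shControl (log2 -0.87). HASPIN, the kinase that marks histone H3 for the passenger complex, was at 30.8 CPM in shNRP2 and 45.7 CPM in shControl. The lowest 3 of this list thus lay lower than any of the 46. SKA2, of the kinetochore SKA complex, was at 81.1 CPM in shNRP2 and 56.9 CPM in shControl (log2 0.50). HAUS4, of the augmin complex, was at 49.1 CPM in shNRP2 and 35.2 CPM in shControl, and the kinase MASTL, which restrains the phosphatase PP2A in mitosis, at 63.9 CPM in shNRP2 and 48.2 CPM in shControl. By subgroup, condensin II and cohesin had 3 lower and 0 higher of 14, the anaphase promoting complex 1 and 0 of 17, kinetochore and centromere genes 3 and 1 of 28, spindle genes 2 and 1 of 18, cytokinesis genes 1 and 0 of 3, mitotic entry kinases 1 and 2 of 6, and MuvB and DREAM genes 2 and 1 of 11, beside 16.2% lower and 19.6% higher over all compared genes.

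Of 12 mitotic kinesins 4 were lower (33.3%) and 0 higher, with a median of -0.17, where 16.2% of all compared genes were lower and 19.6% higher. Their lowest was KIF18A at 9.48 CPM in shNRP2 and 16.3 CPM in shControl. Of 7 mitotic cyclins and partners 1 was lower (14.3%) and 1 higher (14.3%). CCNB1 was lower, at 134 CPM in shNRP2 and 194 CPM in shControl, and CDK1 higher, at 463 CPM in shNRP2 and 350 CPM in shControl. Replication genes had 1 lower (2.86%) and 2 higher (5.71%) of 35, with a median of 0.02. No difference between these lists and the 46 was tested.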

How the data were processed

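RNA sequencing values came from 2 libraries, 1 of shNRP2 and 1 of shControl cells. The submitters' processing notes name edgeR, RSEM 1.2.15, Bowtie2 2.1.0, bcl2fastq 2.17 and build hg19; the role of each, annotation, filters and strandedness were not given in the sources used here. Each deposited table lists, by gene symbol, a signal that the authors had TMM-normalized to reads per 1000000, per the labels of the tables; the columns sum to 1084413 (shNRP2) and 1024943 (shControl), and they are called CPM here. Both columns are whole multiples of 1 read (0.0472 and 0.0487 CPM) for 100% of values within 0.01 read, so whole reads were recovered. No replicate-based count test was possible. Another 28 symbols turned into dates, with 0.184% and 0.181% of the reads, were left out. Symbols averaging 1 CPM or more were compared on log2(CPM + 1) at 1.2-fold; ratios carry exact conditional binomial 95% intervals. Folds, intervals and the binomial test were tried on simulated reads. These were drawn independently by Poisson counting, with no spread between cultures, so the simulation covers counting error only. Transcript length and GC came from the longest protein-coding GENCODE 29 transcript, matched by symbol for 89.9% of compared genes. Of 48 listed promoters, 43 continued into a transcript of their gene on the sense strand and 0 on the other.

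The members, the lists and the 1.2-fold threshold were chosen with earlier results of these data known. Every member is given; full intervals are given for those past 1.2-fold and for the largest change of each role, and of other lists the 3 highest and 3 lowest could be named. The pairs, the 10 to 400 CPM range and the promoters shown were chosen after the values were seen. Of the 97 other mitotic genes 4 were matched through an older symbol. One marker gene is not reported here. Reads of overlapping or antisense genes cannot be told apart. The alternatives included pseudocounts of 0.25 and 5 CPM, dropping the filter or raising it to 5 CPM, equal totals, quantile normalization, centring the log2 ratios on a median of 0, correction for GC content and length, thresholds of 1.5-fold and 2-fold, and counting intervals; the binomial test was added after seeing the data. Python 3.11.15, numpy 2.4.6, scipy 1.17.1, pandas 2.3.3 and matplotlib 3.10.9 were used.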

Additional observations from a re-analysis of the deposited data

How the results depend on the processing

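The counts of 6 lower and 2 higher mitotic genes stayed within 1.5 times under both other pseudocounts, both other filters, a median log2 ratio of 0, quantile normalization and removal of the GC and length trend. With equal library totals they were 10 and 1. At 1.5-fold 0 genes were lower and 0 higher, where 3.57% and 5.78% of all compared genes were. At 2-fold the counts were also 0 and 0, where 0.526% and 1.46% of all compared genes were lower and higher. Calling by the counting interval alone gave 16 and 9, and the exact binomial test, added after seeing the data, also gave 16 and 9. Of the 8 genes called, 8 were called again at a median log2 ratio of 0 and under quantile normalization, and 7 with equal totals, with a pseudocount of 5 CPM and with the trend removed; none of the 8 changed sign in these alternatives. Calls gained were BUB1, AURKA, ECT2 and UBE2C (lower) with equal totals, BUB1 and ECT2 at a median of 0, ECT2 under quantile normalization and MKI67 (higher) with the trend removed. Equal totals changed the sign of 11 of the 46 genes, all of them uncalled. No paired analysis was possible because each group holds 1 library. For the same reason no library could be left out. Depth limits the rarest members most: CENPI had 273 reads in shNRP2 and 243 in shControl, and a ratio of 1.09 (0.912 to 1.30).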

Other observations

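Levels per length, in CPM per kb of the longest coding transcript, are comparable between subunits only as far as that transcript is the one expressed. On that scale SPC24 was the lowest of the NDC80 complex in both libraries, at 7.95 in shNRP2 and 6.12 in shControl, and NDC80 was at 23.5 in shNRP2 and 22.3 in shControl. Within condensin I, NCAPD2 was the highest, at 67.5 in shNRP2 and 67.2 in shControl, and SMC2 the lowest, at 10.2 in shNRP2 and 10.1 in shControl. Between them lay SMC4 (49.8 in shNRP2 and 54.3 in shControl), NCAPH (29.7 and 31.2) and NCAPG (14.6 and 15.6). The order of these subunits was the same in both libraries.

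Across the 46 mitotic genes, which are not independent and share both libraries, the log2 change had a Spearman correlation of 0.03 with transcript length, 0.00 with GC content and -0.20 with mean CPM. Over the 11969 compared genes with a length these were -0.12, 0.08 and 0.03. CHR letters were also found in 37 of 83 other mitotic genes with a promoter (44.6%).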
